A study of Mus musculus with 24 samples.

Results

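The p53 core circuit and the INK4 locus were followed as 9 genes picked by symbol from the deposited table, which held 19895 entries. They were Trp53, which encodes p53, its antagonists Mdm2 and Mdm4, its target Cdkn1a, the cyclin-dependent kinase inhibitors Cdkn2a, Cdkn2b and Cdkn2c, and the p53 relatives Trp63 and Trp73. All 9 were found in the table, and 7 of them, detected in all 24 libraries, were among the 11448 genes tested. Trp63 and Trp73 were at 0 in some libraries and were left out of the tests, except in an alternative without a filter on low counts.

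The data came from mouse pancreas organoids, which are ductal epithelial cultures grown in a gel of basement membrane. N organoids were wildtype C57Bl/6J. KP organoids came from pancreatic tumours of mice in which Pdx1-Cre, active in the pancreatic lineage, switched on Trp53+/LSL-R172H, a missense p53 allele, so that these organoids differ from N by more than their p53 genotype. Both were treated with vehicle (DMSO) or with 10 nM CR-31, a rocaglate inhibitor of the RNA helicase eIF4A that unwinds mRNA leaders for translation, for 1 h in medium without EGF and N-acetylcysteine. From each of 12 lysates, mRNA bound by at least 3 ribosomes (polysome-associated mRNA) and total mRNA were sequenced, giving 24 libraries in 8 groups of 3. The design asks how the organoid types differ, what CR-31 does in each, and whether polysome association moves apart from mRNA level.

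p53 is a transcription factor that is kept low by the ubiquitin ligase Mdm2 and by Mdm4, and that induces Cdkn1a, Mdm2 and genes of cell cycle arrest and apoptosis. Cdkn2a yields 2 unrelated proteins from different first exons: p16Ink4a, which blocks Cdk4 and Cdk6 upstream of the retinoblastoma protein, and p19Arf, which sequesters Mdm2 and so releases p53. The locus is known to be induced by oncogenic stress, and loss of it or of p53 function is common in pancreatic ductal adenocarcinoma. The table has 1 entry for Cdkn2a, so p16Ink4a and p19Arf transcripts could not be told apart here, and it has 1 for Trp53, so neither could the wildtype and R172H alleles.

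Because Cdkn2a and its neighbour Cdkn2b behaved differently, the 250 bases before their annotated starts are shown with those of the p53 targets Cdkn1a and Mdm2. The sequences are from RefSeq on GRCm38.p6, read 5′ to 3′ on the strand of the gene. Capitals mark matches to the p53 consensus decamer or to an E2F-type motif (TTTCCCGC, TTTCGCGC, TTTGCCGC or TTTGGCGC), each searched on both strands, and no 2 matches overlapped.
Cdkn2a, start of the Arf transcript, chr4:89294620-89294869, minus strand: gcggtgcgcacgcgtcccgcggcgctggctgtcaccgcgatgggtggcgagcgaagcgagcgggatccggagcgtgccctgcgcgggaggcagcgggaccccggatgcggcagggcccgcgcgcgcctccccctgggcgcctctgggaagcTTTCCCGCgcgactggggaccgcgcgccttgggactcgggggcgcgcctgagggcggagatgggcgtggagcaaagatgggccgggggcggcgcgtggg
Cdkn2a, start of the Ink4a transcript, chr4:89282193-89282442, minus strand: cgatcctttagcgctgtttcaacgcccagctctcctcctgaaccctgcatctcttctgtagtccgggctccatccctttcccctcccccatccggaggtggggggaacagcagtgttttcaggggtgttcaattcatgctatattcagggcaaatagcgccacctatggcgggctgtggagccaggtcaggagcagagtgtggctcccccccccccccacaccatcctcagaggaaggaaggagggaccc
Cdkn2b, chr4:89311033-89311282, minus strand: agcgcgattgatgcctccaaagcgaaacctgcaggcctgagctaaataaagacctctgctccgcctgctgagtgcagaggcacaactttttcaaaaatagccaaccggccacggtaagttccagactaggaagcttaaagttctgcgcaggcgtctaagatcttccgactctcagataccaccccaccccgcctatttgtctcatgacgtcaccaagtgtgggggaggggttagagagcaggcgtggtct
Cdkn1a, upstream start, chr17:29090729-29090978, plus strand: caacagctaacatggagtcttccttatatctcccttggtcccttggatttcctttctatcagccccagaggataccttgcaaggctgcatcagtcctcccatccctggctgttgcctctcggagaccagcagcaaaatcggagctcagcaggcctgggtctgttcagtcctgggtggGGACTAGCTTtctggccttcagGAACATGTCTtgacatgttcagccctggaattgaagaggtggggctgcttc
Mdm2, chr10:117710759-117711008, minus strand: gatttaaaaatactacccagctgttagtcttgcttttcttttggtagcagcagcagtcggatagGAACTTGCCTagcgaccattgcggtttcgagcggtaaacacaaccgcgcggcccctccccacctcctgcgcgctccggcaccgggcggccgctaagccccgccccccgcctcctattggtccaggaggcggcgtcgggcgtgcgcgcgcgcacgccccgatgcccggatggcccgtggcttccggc

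The Cdkn2a starts lie 12427 bases apart. The window before the Arf start had a GC content of 78.4% with 40 CpG dinucleotides, against 60% and 7 before the Ink4a start and 53.6% and 12 before Cdkn2b, while the median over 32851 promoter windows was 52.4% and 6.0. The Arf window held 1 E2F-type match, TTTCCCGC, 99 bases before the start, a motif found in 1.86% of all windows. No p53 decamer was found in the Cdkn2a, Cdkn2b or Cdkn2c windows. The upstream Cdkn1a window, 2790 bases before the second annotated start, held 2 decamers, GGACTAGCTT and GAACATGTCT, at 73 and 51 bases before the start. A window with at least 1 decamer made up 7.13% of the table and one with at least 2 made up 0.259%. Mdm2 held 1 decamer, GAACTTGCCT, 186 bases before its start, and Trp53 held 1, GGACTTGCCC, at 75 bases. Among 13 windows of 8 members, 3 had a decamer and 1 the E2F-type motif, and the promoter table had no entry for Trp63. These matches describe letters in a window and are not mapped binding sites.

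Library totals ranged from 47308461 to 267463046 counts, deep enough that Cdkn2c, the tested member with the fewest counts, had at least 524 counts per library. N libraries and KP libraries never shared a sequencing lane, so every KP against N difference cannot be told apart from lane. Within each organoid type, the vehicle and CR-31 libraries of replicate 2 were in different lanes, so the CR-31 change of that pair cannot either. The pairs of replicates 1 and 3 each shared a lane. In these bulk cultures, fewer cells of a type and less RNA per cell cannot be told apart either. The ductal identity given by the labels was borne out by keratins and Epcam: of 9 duct markers, 8 reached at least 1 RPKM (reads per kilobase of transcript, scaled to library depth) in every library of either type. The summed RPKM of the 9 ranged from 4410 to 8160 in N and from 3380 to 5980 in KP libraries. Among them, Krt7 rose and Cdh1, Epcam, Krt18 and Sox9 were among those that fell in KP polysome-associated mRNA under vehicle, and the part of this in the results below was not tested. Endocrine (5 markers), fibroblast (8) and endothelial (4) markers were under 1 RPKM in every library, and Ins1, Ins2, Gcg and Col3a1 were at 0 in all 24. Acinar markers were under 1 RPKM except Cela1, and summed to 2.84 to 4.78. The summed level of 6 immune markers was 3.57 to 19.7 in N and 1.44 to 6.42 in KP libraries, and its part was not tested either.

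Per unit of transcript length, Cdkn1a led in N and Cdkn2a in KP organoids, and Mdm4 and Cdkn2c were the least abundant tested members. In the 12 N libraries the median RPKM was 175.1 for Cdkn1a (range 102 to 250), 98.0 for Cdkn2a (53.6 to 130), 66.6 for Trp53 (44.9 to 81.7), 62.4 for Cdkn2b (36.1 to 90.4) and 28.3 for Mdm2 (18.5 to 50.7), then 6.63 for Cdkn2c (3.85 to 11.6) and 5.65 for Mdm4 (3.89 to 10.8). Neighbours in that order overlapped except Mdm2 and Cdkn2c. In the 12 KP libraries it was 251.6 for Cdkn2a (213 to 370), 177.5 for Cdkn1a (107 to 234), 69.8 for Trp53 (53.6 to 80.9), 60.1 for Cdkn2b (47.2 to 69.7) and 31.3 for Mdm2 (16.1 to 44), then 14.5 for Cdkn2c (9.99 to 20.8) and 3.91 for Mdm4 (1.11 to 5.69). There Cdkn1a and Trp53, Cdkn2b and Mdm2, and Cdkn2c and Mdm4 did not overlap. On polysomes in N the order of the last 2 was turned, with medians of 8.03 for Mdm4 and 7.55 for Cdkn2c. So was that of Cdkn2b (62.96) and Trp53 (61.83). The other two members were barely detected.

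**Figure D1:**
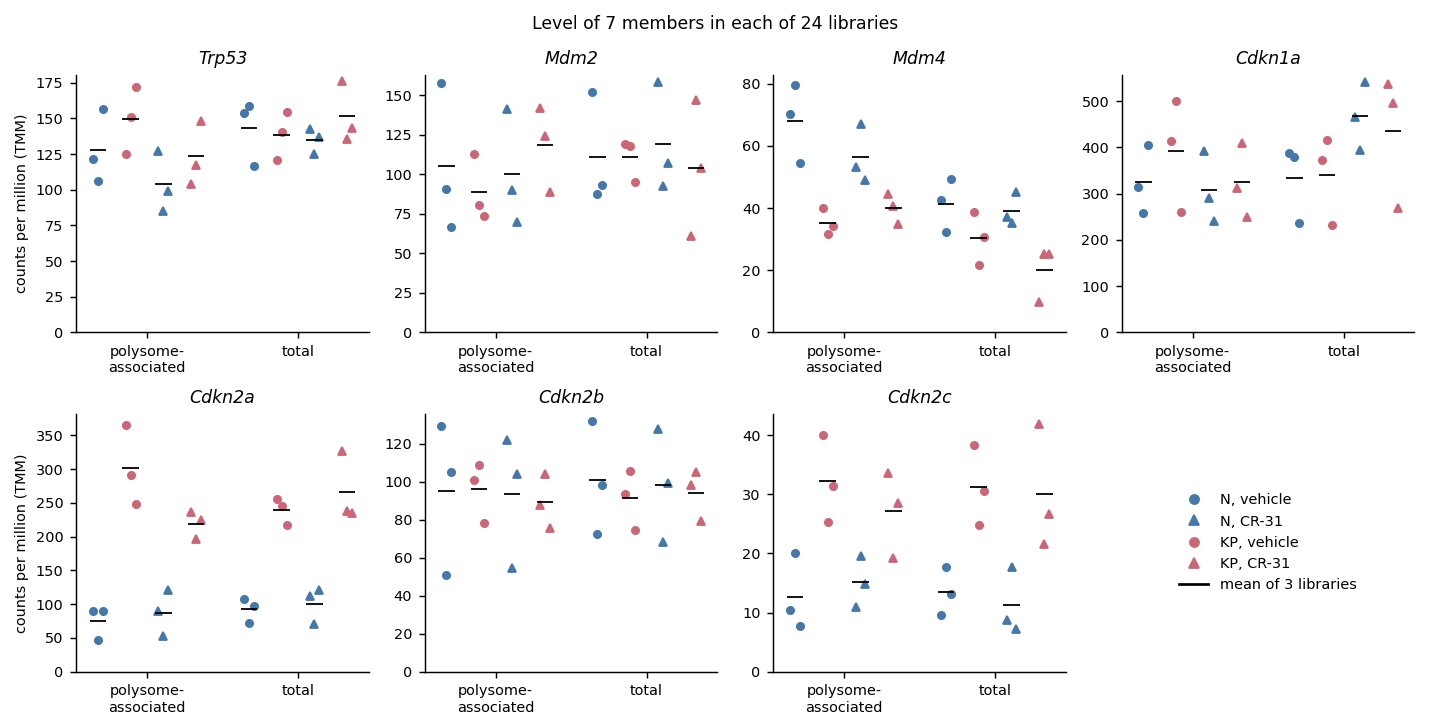
Levels of the 7 tested members in counts scaled to library depth (CPM, vertical axes, linear from 0) in polysome-associated and total mRNA. Points are single libraries, blue for N and red for KP, circles for vehicle and triangles for CR-31, and bars are means of 3. For Cdkn2a all 12 KP points lie above all 12 N points, whereas N and KP points intermingle for Trp53, Mdm2, Cdkn1a and Cdkn2b.

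Among the INK4 genes, Cdkn2a and Cdkn2c were higher in KP, whereas Cdkn2b, which lies 11670 bases from Cdkn2a, was not called. In vehicle-treated polysome-associated mRNA, 2 of the 7 tested members were called higher and 1 lower in KP. A gene counted as called when edgeR's quasi-likelihood test gave it an adjusted p below 0.25, the rate the study used. Over all tested genes 21% were called higher and 22.2% lower in that comparison, so a called member is not unusual here and the sizes carry more information than the count.

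Cdkn2a in polysome-associated mRNA measured 89.9, 46.9 and 90.2 CPM (counts scaled to library depth) in the 3 N vehicle libraries and 366, 292 and 248 CPM in the KP vehicle libraries. Every KP library was well above every N library. The means were 75.6 ± 24.9 and 302 ± 59.8 CPM (SD, n = 3), a log2 fold change of 2.00 (SE 0.33, edgeR adjusted p = 0.0051), or 3.99-fold. In total mRNA it measured 108, 72.4 and 98.0 CPM in N and 256, 245 and 218 CPM in KP vehicle libraries. Those groups did not overlap either, and the log2 fold change was 1.37 (SE 0.24, edgeR adjusted p = 0.0078), or 2.59-fold. Over the other scalings, filters, tools, the block and the left-out lysates the polysome log2 fold change ran from 1.75 to 2.14 and the adjusted p from 7.6e-07 to 0.026.

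Cdkn2c, which encodes p18Ink4c and lies on the same chromosome at chr4:109660876-109666756, measured 10.45, 19.99 and 7.65 CPM in N and 40, 25.3 and 31.4 CPM in KP polysome-associated mRNA under vehicle. The lowest KP library stood only slightly above the highest N library. The log2 fold change was 1.34 (SE 0.37, edgeR adjusted p = 0.033). In total mRNA the values were 9.61, 17.7 and 13.2 CPM in N and 38.3, 24.9 and 30.5 CPM in KP, again without overlap. The log2 fold change there was 1.21 (SE 0.38, edgeR adjusted p = 0.068).

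Cdkn2b encodes p15Ink4b, which like p16Ink4a binds Cdk4 and Cdk6. It measured 129, 51.1 and 105 CPM in N and 101, 109 and 78.2 CPM in KP polysome-associated mRNA, and the KP values fell inside the N range. The log2 fold change was 0.013 (SE 0.35, edgeR adjusted p = 0.98) there and -0.14 (SE 0.27, edgeR adjusted p = 0.79) in total mRNA. Cdkn2b overlaps the lncRNA gene Gm12610, and as the strand setting of the counting is not given in the sources used here, their reads may not be separate. N replicate 1 was the highest of the 3 N libraries in each fraction and treatment, and N replicate 2 the lowest.

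The contrast between these neighbours did not depend on how libraries were scaled against each other, since it could be read within each library. The RPKM of Cdkn2a over that of Cdkn2b was between 1.11 and 2.06 in the 12 N libraries (median 1.53) and between 3.06 and 5.94 in the 12 KP libraries (median 4.55). The 24 ratios came from 12 lysates, so the polysome-associated and total libraries of a lysate are not independent.

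On chromosome 4 (GRCm38.p6), Cdkn2a spans chr4:89274473-89294619 and Cdkn2b chr4:89306289-89311032, both on the minus strand. The 3 nearest tested genes on either side were followed in the same comparison. Mtap, the methylthioadenosine phosphorylase gene that is often lost together with this locus in human tumours, had a log2 fold change of 0.44 (SE 0.33, edgeR adjusted p = 0.38) in polysome-associated and 0.24 (SE 0.30, edgeR adjusted p = 0.67) in total mRNA. On the other side, Tusc1 had 0.30 and -0.46 in these fractions. Of the 6 neighbours (Hacd4, Klhl9, Mtap, Tusc1, Caap1 and Plaa) none was called in either fraction, and their adjusted p values were between 0.34 and 0.96. Among the genes of this stretch that were tested, a call was made for Cdkn2a alone.

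**Figure D2:**
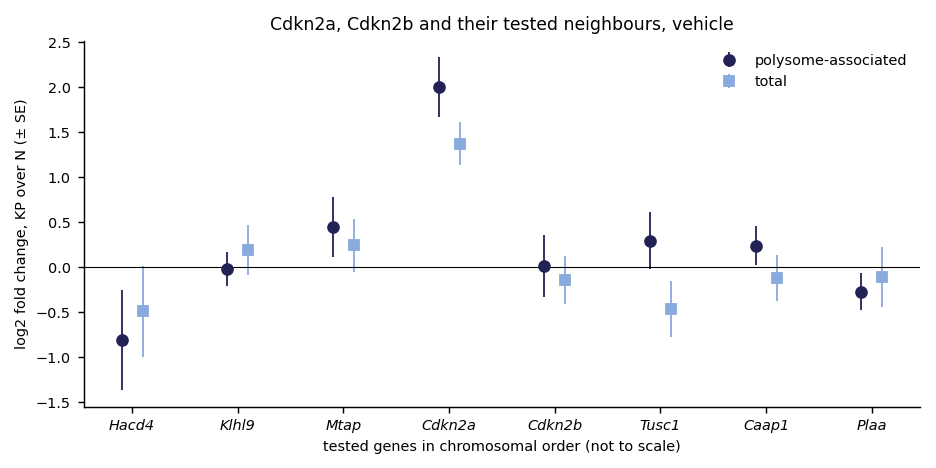
Log2 fold change of KP over N under vehicle, with its SE, for Cdkn2a, Cdkn2b and the 3 tested genes on each side, in chromosomal order but not to scale. Circles are polysome-associated and squares total mRNA. Cdkn2a stands at 2.00 and 1.37 and the other genes between -0.81 and 0.44.

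Of the p53 antagonists under vehicle, Mdm4 was called lower in KP organoids on polysomes and was not called in total mRNA, and Mdm2 was called in neither. Mdm4 encodes a relative of Mdm2 that binds the p53 activation domain. Its gene, chr1:132986105-133030587, overlaps the pseudogene Gm29257 and the lncRNA gene Gm41953, with the same limit on strand as for Cdkn2b. It measured 70.2, 79.5 and 54.5 CPM in N and 39.95, 31.6 and 34.3 CPM in KP polysome-associated mRNA under vehicle, with no overlap. The log2 fold change was -0.95 (SE 0.21, edgeR adjusted p = 0.014), 1.93-fold lower. In total mRNA it measured 42.8, 32.2 and 49.3 CPM in N and 38.7, 21.7 and 30.6 CPM in KP, and the groups overlapped. The log2 fold change of -0.45 (SE 0.34, edgeR adjusted p = 0.46) did not pass the test. In total mRNA 2 members, Cdkn2a and Cdkn2c, were called higher and none lower, where 13.1% of all tested genes were called higher and 15.4% lower.

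Mdm2 (chr10:117688875-117710758) measured 158, 90.7 and 66.7 CPM in N and 113, 80.5 and 73.7 CPM in KP polysome-associated mRNA, so that all KP values lay inside the N range. Its log2 fold change was -0.24 (SE 0.35, edgeR adjusted p = 0.68), and -0.0034 (SE 0.32, edgeR adjusted p = 1.00) in total mRNA. As for Cdkn2b, N replicate 1 was the highest N library in each treatment and fraction, at 141 to 158 CPM, and without N vehicle replicate 1 the polysome value turned to 0.18.

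Trp53 (chr11:69580348-69591873) mRNA itself differed little between organoid types. It measured 122, 106 and 156 CPM in N polysome-associated mRNA. In KP it measured 125 and 151 CPM in replicates 1 and 2 and was highest of all 12 polysome libraries in replicate 3, and the groups overlapped. The log2 fold change was 0.22 (SE 0.23, edgeR adjusted p = 0.54) on polysomes and -0.046 (SE 0.18, edgeR adjusted p = 0.91) in total mRNA. These are mRNA levels, and they say nothing of p53 protein, whose stability Mdm2 controls.

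Cdkn1a (chr17:29090979-29100722) encodes p21, the Cdk2 inhibitor best known as a p53 target. It measured 314, 257 and 405 CPM in N and 413, 501 and 260 CPM in KP polysome-associated mRNA, with overlap. Its log2 fold change was 0.27 (SE 0.30, edgeR adjusted p = 0.57) and 0.025 (SE 0.30, edgeR adjusted p = 0.97) in total mRNA. KP replicate 3 was the lowest KP library in each treatment and fraction, at 231 to 270 CPM.

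Trp63 (chr16:25683763-25892088) and Trp73 (chr4:154056249-154139875), which in epithelia are tied to basal and squamous identity and to differentiation, were close to the detection limit. Trp63 was at 0 in 13 of 24 libraries and reached at most 10 counts, with 49 counts in all. Trp73 was at 0 in 10 libraries and reached at most 10 counts, with 72 in all. A count of 0 allows up to 3 counts, which in these libraries is 0.0112 to 0.0634 CPM and covers counting error only. The 5 basal and squamous markers summed to 3.51 to 45.8 RPKM in N against 0.562 to 3.06 in KP, and Dsg3 was under 1 RPKM in every library of either type. Krt14 had a log2 fold change of -4.11 (edgeR adjusted p = 0.017) and Krt6a of -4.99 (edgeR adjusted p = 0.0068) in polysome-associated mRNA under vehicle, while Krt5, at -0.43 (edgeR adjusted p = 0.84), and Krt15, at -0.93 (edgeR adjusted p = 0.50), were not called. Krt15 was called lower in total mRNA under vehicle, and Krt5 was called lower on polysomes under CR-31.

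**Figure D3:**
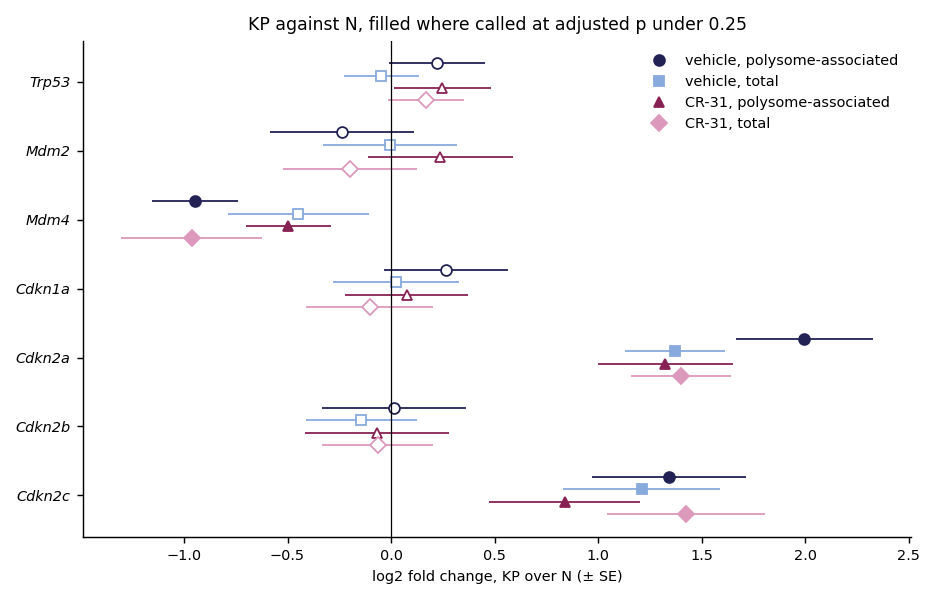
Log2 fold change of KP over N, with its SE, for the 7 tested members in vehicle and in CR-31, in polysome-associated and total mRNA. Filled symbols were called at an adjusted p under 0.25. Cdkn2a and Cdkn2c lie right of 0 in all 4 comparisons, Mdm4 left of 0, and the other 4 members within 0.27 of 0.

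The same comparison was made among CR-31-treated organoids, which are other libraries, although same-numbered vehicle and CR-31 libraries deviated together, so the vehicle and CR-31 comparisons are not independent. In polysome-associated mRNA 2 members were called higher and 1 lower, where 11.2% of all tested genes were called higher and 13.8% lower. In total mRNA 2 were higher and 1 lower, where the shares of all genes were 18.9% and 21%. The called members were Cdkn2a, Cdkn2c and Mdm4 in each fraction.

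Under CR-31, Cdkn2a measured 89.8, 52.4 and 120 CPM in N and 236, 197 and 225 CPM in KP polysome-associated mRNA, without overlap, a log2 fold change of 1.33 (SE 0.33, edgeR adjusted p = 0.036). In total mRNA its log2 fold change was 1.40 (SE 0.24, edgeR adjusted p = 0.0072). Cdkn2c had 0.84 (SE 0.37, edgeR adjusted p = 0.20) on polysomes, where the groups overlapped, and 1.42 (SE 0.38, edgeR adjusted p = 0.036) in total mRNA. Leaving out KP CR-31 replicate 1 or 3, or N CR-31 replicate 1 or 3, took the polysome call of Cdkn2c away, with adjusted p values of 0.52, 0.35, 0.37 and 0.29, and so did upper-quartile scaling (0.255).

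Mdm4 under CR-31 measured 53.2, 67.1 and 49 CPM in N and 44.6, 40.6 and 34.97 CPM in KP polysome-associated mRNA, without overlap, at -0.50 (SE 0.21, edgeR adjusted p = 0.18). That call was lost without any one of the KP CR-31 replicates or without N CR-31 replicate 2, with adjusted p values of 0.28 to 0.45, and with no filter on low counts (0.256). In total mRNA Mdm4 measured 37.1, 35.2 and 45.3 CPM in N and 9.77, 25.3 and 25.2 CPM in KP, at -0.96 (SE 0.34, edgeR adjusted p = 0.088). KP CR-31 replicate 1 was far below the other two KP libraries. The remaining 4 members were not called in either fraction under CR-31, except that the replicate block, which uses the pairing, called Mdm2 higher on polysomes (0.28, edgeR adjusted p = 0.16), where it called 28.7% of all genes higher.

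The genes around the circuit were described by 3 lists of textbook members. Of 29 tested p53 target genes other than Cdkn1a and Mdm2, 7 rose and 8 fell in KP polysome-associated mRNA under vehicle and 14 were not called. Their median log2 fold change was 0.12, against -0.034 over all 11448 genes. Those that fell included Btg2, an anti-proliferative gene (-2.59, SE 0.80, edgeR adjusted p = 0.046), Fas, a death receptor (-2.35, SE 0.63, edgeR adjusted p = 0.030), and Pmaip1, which encodes the BH3-only protein Noxa (-1.97, SE 0.21, edgeR adjusted p = 0.00063). Pidd1, a death domain gene, rose (1.65, SE 0.27, edgeR adjusted p = 0.0044). The called targets therefore went both ways, in a share (51.7%) not far from that of all genes (43.2%).

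In total mRNA 5 targets rose and 5 fell (34.5%, against 28.5% of all genes). Fas (-2.46), Pmaip1 (-2.02) and Pidd1 (1.30) were called there too, whereas Btg2 at -0.53 (edgeR adjusted p = 0.69) was not. Without KP vehicle replicate 1 the total mRNA counts were 3 and 3, with 14.1% of all genes called. Without KP vehicle replicate 2, N vehicle replicate 2 or 3, or KP CR-31 replicate 3, 3 rose in total mRNA. In these fits 20.5%, 20.2%, 16.1% and 26.8% of all genes were called. On polysomes 4 rose without KP vehicle replicate 2 (32.2% of all genes called), and 5 rose and 5 fell without KP vehicle replicate 1 (28.5%). There 10 rose and 6 fell without N vehicle replicate 1 (41.5%), and 9 rose and 7 fell without N vehicle replicate 3 (48.2%). Among CR-31 libraries Btg2 was not called on polysomes (0.037, edgeR adjusted p = 0.98). Its polysome mean in N was 146.5 CPM there and 618 CPM under vehicle. In total mRNA under CR-31 it was called at -1.95 (edgeR adjusted p = 0.089).

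Of 18 tested regulators of p53, 4 rose, 2 fell and 12 were not called in polysome-associated mRNA under vehicle (33.3% called, against 43.2% of all genes), with a median of -0.11. The checkpoint kinases Chek2 (1.03, SE 0.31, edgeR adjusted p = 0.044) and Chek1 (0.74, SE 0.35, edgeR adjusted p = 0.16) rose, as did Rpl11, a ribosomal protein that binds Mdm2 (0.68, SE 0.23, edgeR adjusted p = 0.068). The deacetylase gene Sirt1 fell (-0.74, SE 0.30, edgeR adjusted p = 0.11). In total mRNA 3 rose (Chek2, Ppm1d and Ppp1r13b) and none fell (16.7%, against 28.5% of all genes), with a median of 0.16, so the sign of the median differed between fractions. On polysomes 3 rose and 5 fell without N vehicle replicate 3, where 48.2% of all genes were called. The count that rose in total mRNA was 1 without N vehicle replicate 3 (16.1% of all genes called) and 5 without N vehicle replicate 1 (32.8%).

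The third list held INK4 partners, E2F and Rb family genes, other kinase inhibitors and Polycomb regulators of the locus. Of 19 tested genes of this INK4 and Rb axis, 10 rose and 1 fell in polysome-associated mRNA under vehicle, and 8 were not called, so that 57.9% were called against 43.2% of all genes. The median was 0.55. E2f2, an activating E2F, had the largest change of the list (3.47, SE 0.35, edgeR adjusted p = 0.00051), with group means of 1.35 CPM in N and 14.9 CPM in KP. Cdkn2d, which encodes the INK4 protein p19Ink4d, rose (2.044, SE 0.41, edgeR adjusted p = 0.010), as did the cyclin genes Ccne1 (1.79, SE 0.23, edgeR adjusted p = 0.0014) and Ccnd2 (1.36, SE 0.50, edgeR adjusted p = 0.085). The one that fell was Cdkn2aip, the gene of an Arf-binding protein (-0.73, edgeR adjusted p = 0.071). In total mRNA 8 rose and none fell (42.1%, against 28.5% of all genes), with a median of 0.43 against -0.027 over all genes. Without N vehicle replicate 2 or 3 the count that rose was 6 (20.2% and 16.1% of all genes called). The count that fell on polysomes was 3 without N vehicle replicate 1 or 3 (41.5% and 48.2% of all genes called). It was 2 without N vehicle replicate 2 (32.2%). The kinase genes Cdk4 and Cdk2 rose on polysomes, while Cdk6 (-0.67, edgeR adjusted p = 0.29) and Rb1 (0.095, edgeR adjusted p = 0.83) were not called.

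The upper-quartile scaling gave 10 higher and 4 lower for this list in polysome-associated mRNA. Over all genes it gave 1995 higher and 3017 lower. With the replicate number as a block, which uses the pairing of vehicle and CR-31 samples within an organoid type, 3890 genes were called higher and 3981 lower in this comparison (68.8%) in place of 2401 and 2541. The block gave 12 and 9 for the targets, 6 and 7 for the regulators and 11 and 4 for the INK4 and Rb axis. In total mRNA it gave 9 and 8, 7 and 0, and 12 and 3, with 56.4% of all genes called. That fit measures KP against N by the spread within replicate pairs.

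**Figure D4:**
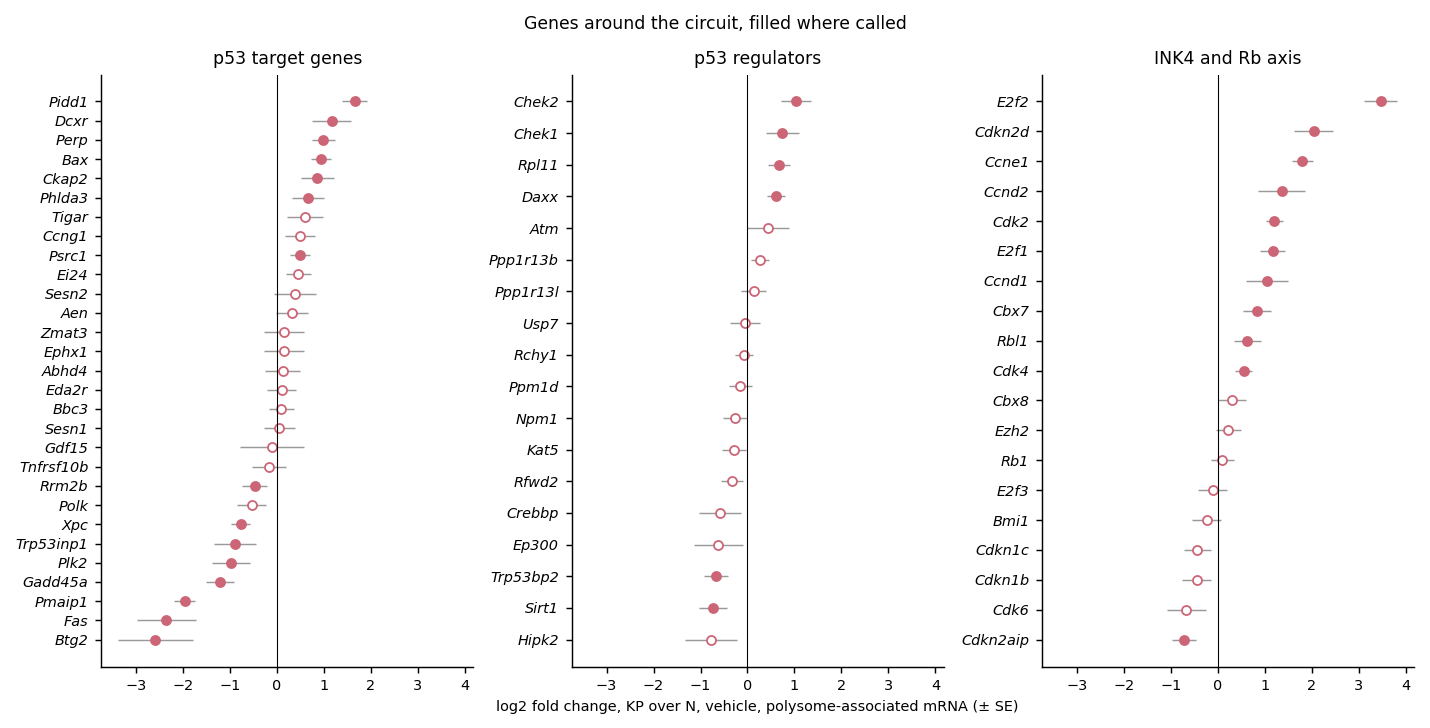
Log2 fold change of KP over N in polysome-associated mRNA under vehicle, with its SE, for each tested gene of 3 lists. Filled points were called at an adjusted p under 0.25. The p53 targets spread to both sides of 0, from -2.59 to 1.65, while in the INK4 and Rb axis 10 of 11 called genes lie right of 0.

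Without the replicate block, CR-31 moved none of the members past the test, and with it 2 members were called in KP polysomes. In the fit without the block, in either organoid type and either fraction, 0 of 7 members and 0.0% of all tested genes were called by edgeR's quasi-likelihood test. Under an unadjusted p of 0.05 lay 48 to 407 of the 11448 genes, depending on the comparison, and 0 of the members. The log2 changes of the members ran from -0.30 to 0.26 in N and from -0.46 to 0.41 in KP polysome-associated mRNA. In total mRNA they ran from -0.27 to 0.48 in N and from -0.59 to 0.35 in KP.

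Cdkn2a was the lower end in KP polysomes: 366, 292 and 248 CPM under vehicle became 236, 197 and 225 CPM under CR-31, replicate by replicate. All 3 CR-31 libraries lay below all 3 vehicle libraries, and the log2 change was -0.46 (SE 0.32, edgeR adjusted p = 1.00). Replicate pairs of 1 organoid type deviated together, and with the replicate block, which uses that pairing, Cdkn2a was called at -0.45 (edgeR adjusted p = 0.20), together with Mdm2 at 0.41 (edgeR adjusted p = 0.20), so that 2 of 7 members were called in place of 0. That fit called 19.3% of all tested genes in this comparison, against 0.0% without the block. Mdm2 was higher under CR-31 in all 3 KP pairs, by 0.27 to 0.63 on the log2 scale. In N, Cdkn2a measured 89.9, 46.9 and 90.2 CPM without and 89.8, 52.4 and 120 CPM with CR-31. The difference between the organoid types in the response of Cdkn2a was -0.67 (SE 0.45, edgeR adjusted p = 1.00), and 0.0% of all genes passed that test in either fraction (259 on polysomes and 15 in total mRNA, and 0 members, under an unadjusted p of 0.05). With a lysate left out the Cdkn2a value ran from -0.93 to -0.34.

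The upper end in N total mRNA was Cdkn1a, at 388, 378 and 237 CPM under vehicle and 465, 393 and 542 CPM under CR-31. Every CR-31 library was above every vehicle library, by little in replicate 2, and the log2 change of 0.48 (SE 0.31, edgeR adjusted p = 1.00) did not pass. The pair changes were 0.26, 0.056 and 1.19 in replicates 1, 2 and 3, so replicate 3 supplied most of it. With a lysate left out the value was as low as 0.28. In the replicate 3 pair Cdkn1a went the other way on polysomes (-0.75). The lower end in KP total mRNA was Mdm4, with 38.7, 21.7 and 30.6 CPM under vehicle and 9.77, 25.3 and 25.2 CPM under CR-31. Its log2 change of -0.59 (SE 0.34, edgeR adjusted p = 1.00) was -0.27 without KP CR-31 replicate 1.

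**Figure D5:**
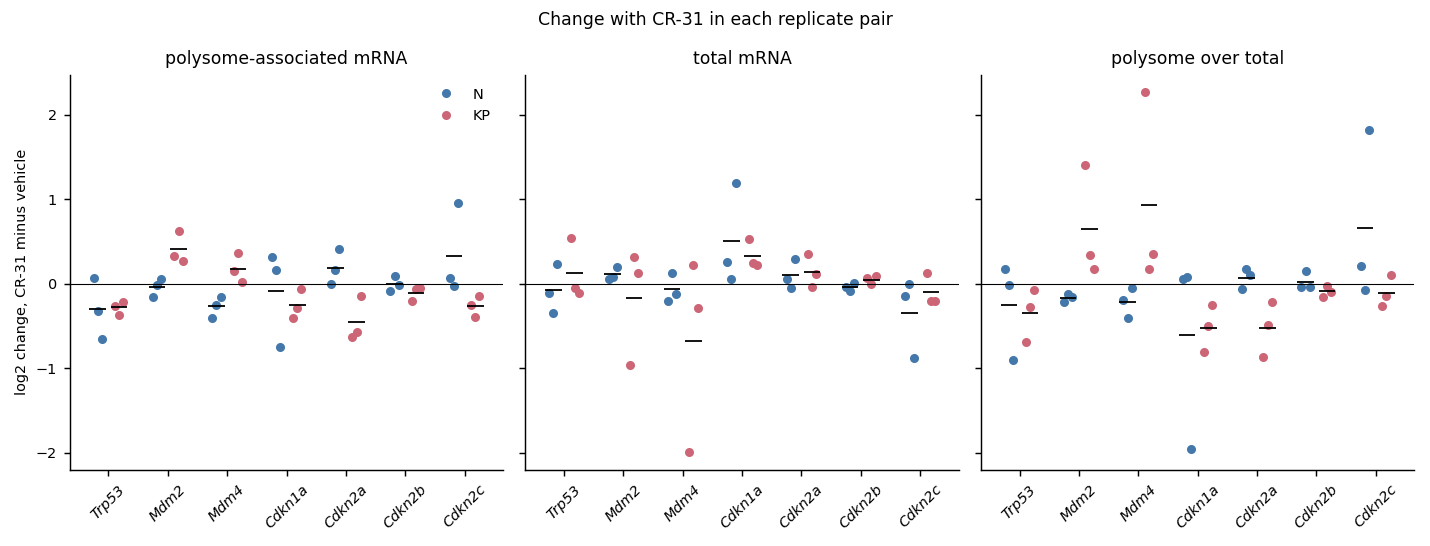
Change with CR-31 (log2, CR-31 minus vehicle of the same replicate number) for the 7 tested members in polysome-associated mRNA, total mRNA and the ratio of polysome-associated to total mRNA. Points are replicate pairs, blue for N and red for KP, and bars are means of 3. Most pairs lie within 1 of 0. In total mRNA and in the ratio, KP replicate 1 gives the extreme values of Mdm2 and Mdm4, and N replicate 3 those of Cdkn1a and Cdkn2c.

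Polysome association relative to mRNA level, taken as translational efficiency, was not called for any member in any of the 3 comparisons, nor for any other gene (0.0%), with all 24 libraries in the fit. For KP against N under vehicle the members' log2 differences ran from -0.52 for Mdm4 (SE 0.42, edgeR adjusted p = 0.61) to 0.61 for Cdkn2a (SE 0.21, edgeR adjusted p = 0.43), and 1 member and 1297 of all genes were under an unadjusted p of 0.05. With a regression on total mRNA, the kind of model the study used, Mdm4 was called at -1.05 (adjusted p = 0.14), as were 10.5% of all genes, and with the replicate block at -0.95 (adjusted p = 0.032), together with Cdkn2c and 54.1% of all genes. Without N vehicle replicate 3 the edgeR test called 18.7% of all genes and 1 member, Cdkn2a (0.69, edgeR adjusted p = 0.16).

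By lysate, the log2 ratio of polysome-associated to total Cdkn2a was -0.32, -0.66 and -0.17 in N vehicle and 0.41, 0.16 and 0.10 in KP vehicle. It was -0.39, -0.48 and -0.073 in N CR-31 and -0.45, -0.33 and -0.12 in KP CR-31. Only the 3 KP vehicle lysates were above 0. The change of this ratio with CR-31 in KP was -0.52 (SE 0.21, edgeR adjusted p = 0.53), negative in 3 of 3 pairs, and the highest adjusted p over the alternatives was 1.00 and the lowest 0.26.

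For Mdm4 the ratio in KP changed with CR-31 by 2.27, 0.17 and 0.35 in replicates 1, 2 and 3, with a fitted value of 0.91 (SE 0.42, edgeR adjusted p = 0.53) that was 0.37 without KP CR-31 replicate 1. For Mdm2 the changes were 1.41, 0.34 and 0.18, with a fitted value of 0.63 (SE 0.35, edgeR adjusted p = 0.53) that was 0.14 without that replicate. With the regression on total mRNA and the replicate block, Mdm2 was called at 0.47 (adjusted p = 0.23), as were 16.7% of all genes. In N, Cdkn2c had 0.65 (SE 0.29, edgeR adjusted p = 0.74), from pair values of 0.21, -0.067 and 1.83, and 0.34 without N vehicle replicate 3. In each of these cases 1 replicate supplied most of the value. Of all genes, 329 in N and 625 in KP were under an unadjusted p of 0.05, and of the members 1 and 2.

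The genes whose total mRNA pattern was most like that of a member over the 12 total mRNA libraries were named by Pearson's r on log2 CPM. These points share organoid type, treatment and lane, and the values are a description. For Cdkn2a they were Srm, the spermidine synthase gene (r = 0.985), Kirrel3, an adhesion molecule gene (0.979), and Atp2c2, a calcium pump gene (0.976). For Cdkn1a they were Rasgef1b (0.913), Ppp1r13l, which encodes the p53 inhibitor iASPP (0.838), and Trip10 (0.835). Mdm2 was most like Arf2 (0.96), Wdr26 (0.944) and Rabgap1 (0.943), where Arf2 is an ADP-ribosylation factor gene unrelated to p19Arf. Trp53 was most like Vps72 (0.908), Ap1m1 (0.871) and Napa (0.859). Between members, r was 0.707 for Cdkn2a with Cdkn2c, 0.141 for Cdkn2a with Cdkn2b, 0.611 for Mdm2 with Cdkn2b and -0.655 for Mdm4 with Cdkn2a.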

How the data were processed

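The deposited table gave raw counts and RPKM values per gene for each library, which the authors made by aligning paired reads with HISAT2, discarding reads with several positions and counting over RefSeq transcripts with RPKMforgenes. Their notes name the build hg38, although the deposited entries are mouse RefSeq transcripts. Among counts from 1 to 20, 69.0% were even, against 50.0% from 1000 to 5000, so a floor of 3 counts can stand for fewer fragments. RPKM was used for levels between genes, counts for tests.

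Entries naming several genes (1042) and genes with 0 in any library were left out, as the study did, which left 11448 genes. Each fraction was fitted on its 12 libraries with edgeR 4.0.16 (R 4.3.3, limma 3.58.1): TMM scaling, a mean per group, the quasi-likelihood test and Benjamini-Hochberg adjustment over all 11448, called at 0.25. Translational efficiency was the interaction of fraction with group, with the lysate as a block. Alternatives were other scalings, DESeq2 1.42.0, filters, a replicate block, the lane, a regression on total mRNA, an adjusted p of 0.05, and leaving out each lysate. The scripts were tested on simulated data. Part of the KP genotype and 1 duct marker are not reported here. CPM are TMM-scaled, and log2 CPM for likeness used a prior count of 0.5.

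The members, lists and tests were chosen with earlier results of these data known. Named were all members, the 4 called genes of each list with the largest change in KP against N vehicle polysome-associated mRNA, the 3 genes most like Cdkn2a, Cdkn1a, Mdm2 and Trp53, and 3 tested neighbours on each side of the INK4 locus. Other list genes were named after their values were seen. Same-numbered vehicle and CR-31 libraries deviated together from their group means (r from 0.54 to 0.91 in N and from 0.37 to 0.87 in KP, 6 of 6 pairs over 0.1 in each), so the numbers pair samples within an organoid type, but not N with KP (5 of 12 pairs over 0.1). The labels do not say whether replicates were separate cultures, so p values measure the spread between these samples. No 2 replicates of a group agreed within sampling noise (chi-square of at least 252 per gene).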

Additional observations from a re-analysis of the deposited data

Results flagged for a closer look

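In the change of the polysome to total ratio with CR-31, all 3 N pairs moved one way and all 3 KP pairs the other for 2 members, and this difference between organoid types in the ratio was not tested. For Mdm2 the mean was -0.165 in N (range -0.22 to -0.12) and 0.644 in KP (0.18 to 1.41). For Mdm4 it was -0.216 in N (-0.41 to -0.048) and 0.929 in KP (0.17 to 2.27). KP replicate 1 gave the highest value for each. Of all 11448 tested genes, 9.87% showed such a split in either direction, and 5.49% in the direction of these 2. In polysome-associated mRNA alone the difference in response was tested and not called, at 0.48 for Mdm2 (SE 0.49) and 0.45 for Mdm4 (SE 0.29), both with an edgeR adjusted p of 1.00. With a lysate left out it ran from 0.059 to 0.81 for Mdm2 and from 0.32 to 0.60 for Mdm4.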

How the results depend on the processing

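In KP against N under vehicle, Cdkn2a and Cdkn2c were called in both fractions and Mdm4 on polysomes under every alternative run, except that at an adjusted p under 0.05 total mRNA kept 1 member, Cdkn2a (9.01% of all genes). Under CR-31 the polysome count was 1 at that threshold (6.02% of all genes), 1 to 3 with a lysate left out (9.47% to 32.3%), 2 with upper-quartile scaling (Cdkn2c lost, 24.7%) and 2 with no filter (Mdm4 lost, 18.2%). The total mRNA count under CR-31 was 2 at that threshold (Mdm4 lost, 10.6%) and 5 with no filter (28.5%), which let in Trp63 and Trp73, both at 0 counts in the 3 N libraries. The replicate block, which follows the pairing, called 2 members in KP polysomes with CR-31 (Cdkn2a and Mdm2, with 19.3% of all genes) and changed no other member's call except Mdm2 in KP against N under CR-31 on polysomes (0.28). For translational efficiency the regression on total mRNA called 1 member (Mdm4, with 10.5% of all genes), with the replicate block 2 (Cdkn2c and Mdm4, 54.1%), and with that block 1 for CR-31 in KP (Mdm2, 16.7%), while leaving out lysates gave 0 to 1 (0.0% to 18.7%). The cause of these changes was not tested. The sign changed for Cdkn2b on polysomes (-0.069 with upper-quartile scaling, -0.29 to 0.30 with a lysate left out), Mdm2 in total mRNA (0.0054 and 0.0033 with the other filters, 0.059 with the block, -0.15 to 0.29), Cdkn1a in total mRNA (-0.0052 with the block, -0.17 to 0.24), Trp53 in total mRNA (-0.17 to 0.043), Cdkn2b in total mRNA (-0.33 to 0.095) and Mdm2 on polysomes (-0.49 to 0.18), and Cdkn2c efficiency in N with CR-31 (-0.036 with the blocked regression). Trp63 and Trp73 had no more than 10 counts in any library, so a difference in them rests on few counts.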
